A study of Mus musculus with 9 samples.

Results

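Major histocompatibility complex (MHC) class I molecules pair a heavy chain with beta-2 microglobulin, the light chain encoded by B2m, and display peptides from inside the cell to CD8 T cells and natural killer cells. In mice the heavy chains include the classical H2-K1 and H2-D1, the Q, T and M region molecules with more specialised roles, and H2-Q10, a soluble Qa-2-like molecule that the liver secretes into the circulation. H2-Q10 was set beside 9 related genes because its intensity differed between the genotypes described here, so the genotype values of these 10 genes are given as a description, with no p-value of their own, and the number of their probes past a threshold is given only beside the same share over all probes. The 10 genes (H2-Q10, H2-K1, H2-D1, H2-Q1, H2-Q2, H2-Q7, H2-T10, H2-T23, H2-M3 and B2m) were each named on the array, and they were measured by 21 of its 41174 probes. Of these genes, 6 had several probes and 4 had 1 probe.

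Mammary gland RNA from 4 WT dams and 5 hNAG-1 dams on lactation day 2 (L2) was labelled with Cy3 and hybridised to 1-colour Agilent whole mouse genome arrays, 1 array per dam. The hNAG-1 mice carry a transgene that expresses human NAG-1 (nonsteroidal anti-inflammatory drug-activated gene 1, also called GDF15, a secreted cytokine of the TGF-beta family) in all tissues, and WT mice do not. Both genotypes had the strain background that the labels give as C57BL/7, and no treatment is named for either. The study describes 2 transgenic lines, and the labels do not say from which line the arrayed hNAG-1 dams came. The study's methods place the collection after the 4th litter and state that each number 4 gland was pulverised on its own. The study gives the age at which females of its breeding experiment were first paired. Ages of the arrayed dams at collection, other than the day of lactation, were not given in the sources used here.

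Intensities were background-subtracted by the scanner software, scaled so that every array had the same 75th percentile, and averaged over the features of a probe; differences are on the log2 scale, hNAG-1 minus WT. A probe is described as called when limma's moderated test gave an unadjusted p under 0.05, the p threshold of the study's methods. The 75th percentile before scaling lay between 532.6 and 1185 and the share of probes well above background between 59.06% and 75.63% over the 9 arrays. The arrays lay on 3 slides, of which only slide 3 held both genotypes (WT 2, WT 3, WT 4 and hNAG-1 5). WT 1 was on slide 1, and hNAG-1 1 to hNAG-1 4 were on slide 2. The array's Gdf15 probe targets the mouse gene, not the human transgene, and therefore did not check the genotype labels (84.5 to 206 in WT and 48.6 to 103 in hNAG-1 dams). The secretory genes of the lactating gland were bright in every dam, led by the milk protein gene Wap, whose mean was 522947 ± 141315 (SD, n = 4) for WT dams against 537676 ± 119955 (SD, n = 5) for the transgenic dams. Of 41174 probes, 2307 were called (5.6%), of which 473 were higher in hNAG-1 dams (1.15% of all probes) and 1834 lower (4.45%). After Benjamini-Hochberg adjustment over all probes with limma, 1 probe (0.00243%) passed 0.05, and it was not a class I or B2m probe.

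H2-Q10 was read by 4 probes, which were compared in sequence with the other probes on the array. Binding of a probe to the RNA of related genes was not tested. On the array design's coordinates (mouse build mm7, chromosome 17) they lie, in order, at chr17:33571803-33571862 (A_52_P428354), chr17:33574106-33574165 (A_51_P496997), chr17:33574366-33574425 (A_51_P230267) and chr17:33575263-33575322 (A_51_P230269). The first pair is called the upstream pair here and the second the downstream pair. An annotation of mm7 was not used here, so exon and UTR boundaries were not assigned, although the upstream pair falls in sequence coding for the alpha 2 and alpha 3 domains of the heavy chain. The sequences below are 60-base probes or parts of them, 5′ to 3′, as the scanner software listed them. They are shown because they overlap the array's probes for relatives to different degrees. Matches to the transcripts of those relatives were not examined. In the first 2 lines the capitals mark the 35 bases that the H2-Q10 probe A_51_P496997 shares without a difference with the probe of H2-Q5, another Q region heavy chain:
H2-Q10 A_51_P496997: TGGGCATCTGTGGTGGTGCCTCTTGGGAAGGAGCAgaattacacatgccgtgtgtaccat
H2-Q5 A_51_P400752, bases 26 to 60: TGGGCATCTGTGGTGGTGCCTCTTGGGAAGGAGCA
In the next lines the capitals mark bases that differ between an H2-Q10 probe and the probe of another member aligned to it without gaps, first against H2-K1 (12 of 52 bases differ) and then, for the downstream probe A_51_P230267, against H2-T23 (9 of 45 aligned bases differ, 8 of them among the 30 shown):
H2-Q10 A_52_P428354: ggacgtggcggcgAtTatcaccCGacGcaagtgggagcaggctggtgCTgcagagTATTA
H2-K1 A_52_P50496, bases 1 to 52: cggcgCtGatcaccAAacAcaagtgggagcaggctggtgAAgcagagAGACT
H2-Q10 A_51_P230267, bases 16 to 45: GCcatcAttAAagctCtggtggTAtttgtg
H2-T23 A_51_P237754, bases 1 to 30: ATcatcCttGGagctGtggtggCTtttgtg
The other downstream probe, A_51_P230269, had no ungapped overlap of at least 30 bases and 70% identity with any other probe on the array, and its bases 16 to 45 are shown in lower case throughout:
H2-Q10 A_51_P230269, bases 16 to 45: gaataagaatctggatgtgaactttattgt

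The downstream H2-Q10 pair was higher in hNAG-1 than in WT mammary gland on average, by 1.89 ± 0.47 (SE) and 1.58 ± 0.48 (SE) on the log2 scale, or 3.71-fold and 2.99-fold. Probe A_51_P230267 read 204, 542, 479 and 1067 in WT 1 to WT 4, and 1514, 2949, 1867, 1017 and 2288 in hNAG-1 1 to hNAG-1 5. WT 1 was the lowest dam and hNAG-1 2 the highest, and the genotypes overlapped because hNAG-1 4 lay below WT 4. Probe A_51_P230269 read 446, 1248, 1258 and 2504 in the WT dams, and 3099, 5282, 3329, 1894 and 4684 in the hNAG-1 dams. The same overlap of hNAG-1 4 with WT 4 was present, and the arrays stood in the same order on both probes except that WT 2 and WT 3 changed places. The means were 573 ± 360 (SD, n = 4) and 1927 ± 738 (SD, n = 5) for A_51_P230267, and 1364 ± 850 (SD, n = 4) and 3657 ± 1344 (SD, n = 5) for A_51_P230269. Across background correction with normexp, quantile normalisation, median scaling, no scaling and the 75th percentile, the pair stayed higher in hNAG-1 dams, at 1.70 to 2.10 and 1.43 to 1.79. Leaving out each dam in turn gave 1.47 to 2.27 and 1.13 to 1.95.

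The genotypes were spread unevenly over the slides, so the downstream pair was also read within slide 3. There hNAG-1 5 lay above WT 2, WT 3 and WT 4 on both probes, and the differences were 1.81 ± 0.63 (SE) and 1.57 ± 0.60 (SE) with slide as a fixed block. Because slides 1 and 2 each held 1 genotype, these estimates rest on hNAG-1 5 alone against 3 WT dams.

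The upstream H2-Q10 pair differed far less between the genotypes, by 0.24 ± 0.22 (SE) for A_52_P428354 and 0.16 ± 0.18 (SE) for A_51_P496997. Probe A_52_P428354 read 5194, 9258, 5223 and 5244 in the WT dams and 6103, 8113, 7119, 8786 and 5928 in the hNAG-1 dams. WT 2 was the highest dam of all on this probe, and the other 3 WT dams lay below all 5 hNAG-1 dams. Probe A_51_P496997 read 35117, 52746, 38329 and 40793 in the WT dams and 41501, 52981, 47545, 52778 and 37637 in the hNAG-1 dams, and the genotypes overlapped. With slide as a fixed block the differences of the upstream pair were -0.09 ± 0.39 (SE) and -0.21 ± 0.29 (SE). The H2-Q5 probe that shares 35 bases with A_51_P496997 read 33697 ± 7370 (SD, n = 4) in WT dams and 37242 ± 5447 (SD, n = 5) in hNAG-1 dams, a difference of 0.15 ± 0.19 (SE). The 4 H2-Q10 probes therefore gave unlike genotype differences, and their mean of 0.97 on the log2 scale is an average of the 2 patterns.

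**Figure D1:**
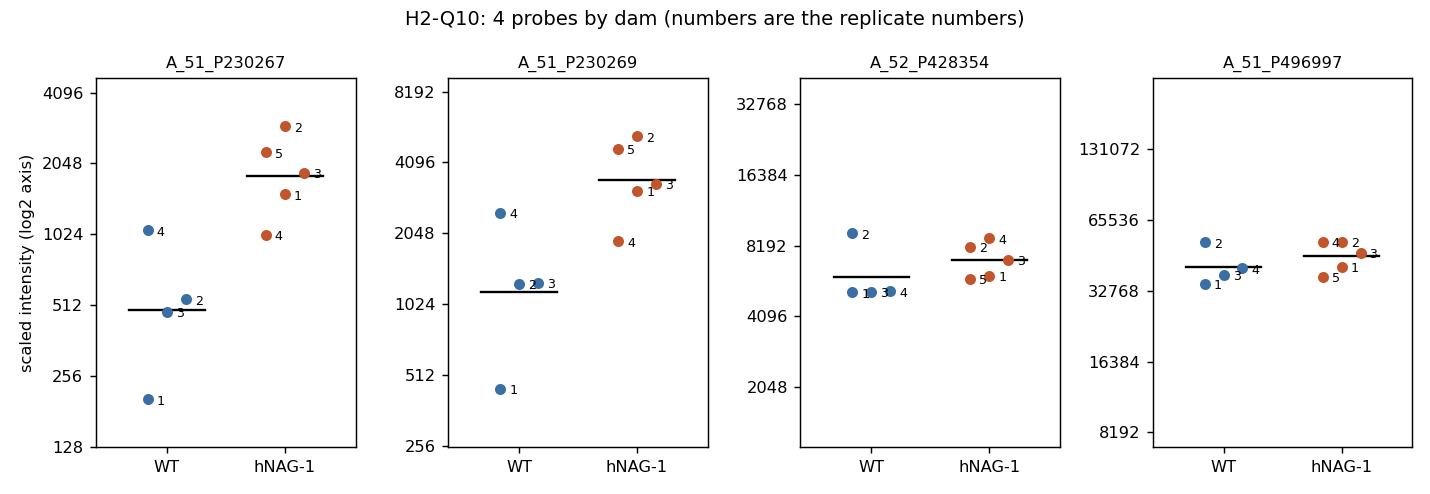
Scaled intensity (log2 axis) of the 4 H2-Q10 probes in each dam, with WT in blue, hNAG-1 in orange, the replicate number beside each point and the geometric mean as a line; all panels span the same number of log2 units. On the downstream pair (left 2 panels) 4 of 5 hNAG-1 dams lie above all WT dams and hNAG-1 4 lies just below WT 4, while the upstream pair (right 2 panels) overlaps with differences of 0.24 and 0.16.

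H2-K1 and H2-D1, the classical heavy chains that present peptides to CD8 T cells on most nucleated cells, showed differences between -0.00 and 0.30 over their 4 probes above background. For H2-K1, A_52_P474242 read 11911, 19736, 15581 and 17035 in the WT dams and 15942, 24982, 20210, 24753 and 14206 in the hNAG-1 dams. WT 1 was the lowest dam and hNAG-1 2 and hNAG-1 4 the highest, and the difference was 0.30 ± 0.23 (SE). The other H2-K1 probes differed by 0.17 ± 0.23 (SE, A_52_P50496) and -0.00 ± 0.18 (SE, A_51_P198434), and the second of these changed sign with the scaling (-0.15 to 0.21). Leaving out each dam in turn gave 0.17 to 0.42 for A_52_P474242 and 0.07 to 0.35 for A_52_P50496. H2-D1 probe A_51_P496996 read 54665, 73428, 48203 and 47036 in the WT dams and 62132, 65773, 60516, 74684 and 45814 in the hNAG-1 dams, a difference of 0.15 ± 0.20 (SE) that ran from 0.08 to 0.29 with each dam left out. Its highest dams were WT 2 and hNAG-1 4 and its lowest was hNAG-1 5. The remaining H2-D1 probe, A_52_P246277, was not well above background on any array, so no fold is given for it.

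On 6 of the 7 probes of H2-Q1, H2-Q2, H2-Q7, H2-T10 and H2-T23, all but H2-Q1 A_52_P231729, WT 2 and hNAG-1 4 were the highest dams of their genotype. H2-Q1, H2-Q2 and H2-Q7 encode Q region molecules. H2-Q1 probe A_51_P425048 ranged from 11209 to 19225 in WT and from 13324 to 20692 in hNAG-1 dams, a difference of 0.29 ± 0.22 (SE), whereas its other probes A_52_P582814 and A_52_P231729 differed by 0.04 ± 0.19 (SE) and 0.02 ± 0.23 (SE), both changing sign with the scaling. H2-Q2 ranged from 51134 to 70999 in WT and from 53039 to 83308 in hNAG-1 dams (0.22 ± 0.18, SE). H2-Q7, one of the genes for the membrane-anchored Qa-2 antigen, ranged from 45157 to 61801 and from 45108 to 66550 (0.13 ± 0.17, SE), and without scaling its difference was -0.02. H2-T23, which encodes Qa-1, the ligand of the CD94/NKG2 receptors of natural killer cells, ranged from 52439 to 62481 in WT and from 52781 to 80722 in hNAG-1 dams (0.21 ± 0.16, SE). H2-T10 ranged from 15087 to 20756 and from 15328 to 25813 (0.10 ± 0.19, SE), with a sign that changed with the scaling. In each of these genes the genotypes overlapped and every difference was under 2 of its standard errors.

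H2-M3, which presents N-formylated peptides of bacterial and mitochondrial origin, and B2m were lower on average in hNAG-1 dams. H2-M3 probe A_51_P469968 read 504, 2248, 655 and 554 in the WT dams and 413, 517, 529, 1133 and 493 in the hNAG-1 dams, a difference of -0.48 ± 0.47 (SE). WT 2 stood apart from the other WT dams and hNAG-1 4 from the other hNAG-1 dams. The H2-M3 difference was 0.02 without WT 2 and -0.22 without both WT 2 and hNAG-1 4. The dimmer H2-M3 probe, A_52_P490263, was well above background in 3 of 4 WT and 5 of 5 hNAG-1 dams, with a difference of -0.18 ± 0.48 (SE) that became 0.36 without WT 2. B2m probe A_51_P129006 read 20460, 29772, 28110 and 22062 in the WT dams and 18241, 13134, 15200, 31472 and 18403 in the hNAG-1 dams, a difference of -0.43 ± 0.26 (SE). Apart from hNAG-1 4, the highest dam of all, every hNAG-1 dam lay below every WT dam on this probe. B2m probe A_51_P129012 ranged from 48032 to 68744 in WT and from 38957 to 93369 in hNAG-1 dams (-0.23 ± 0.28, SE), and A_52_P105594, designed to a cDNA clone that the array names B2m, from 369 to 1594 and from 267 to 933 (-0.12 ± 0.53, SE). The sign of this last probe changed with the scaling, and its difference was 0.37 without WT 2, 0.12 without hNAG-1 1 and 0.06 without hNAG-1 5.

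**Figure D2:**
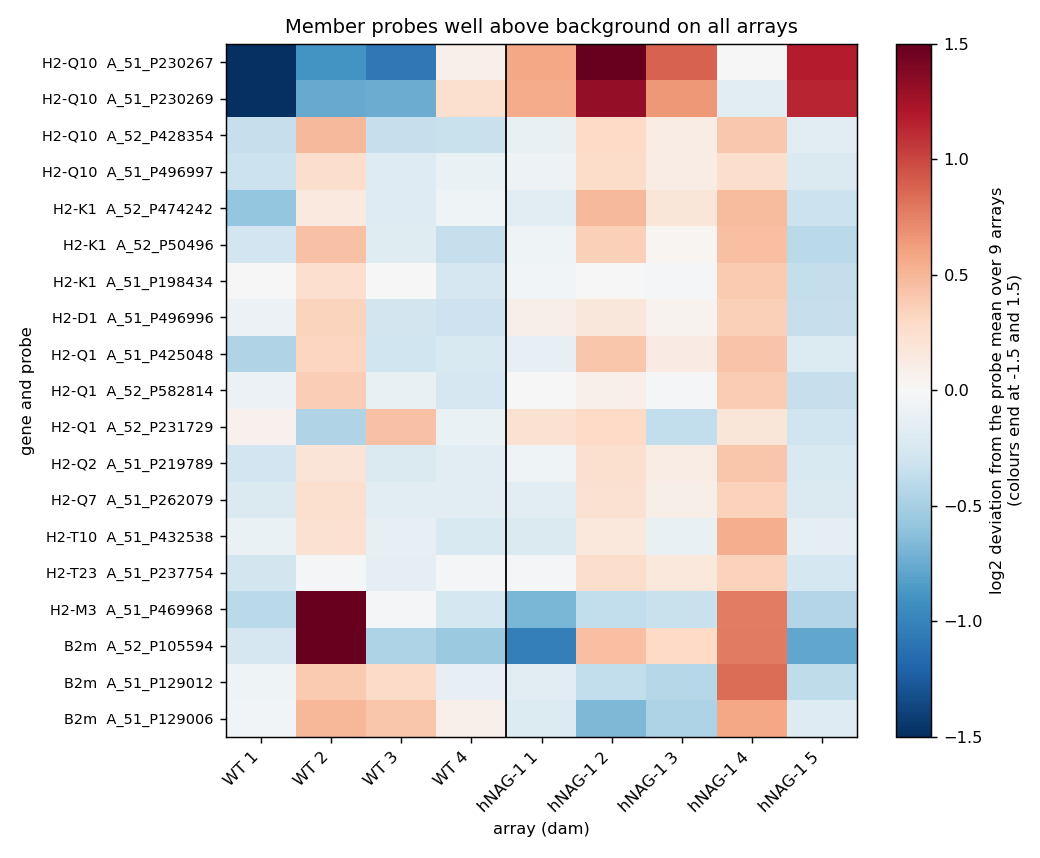
Log2 deviation of each probe from its own mean over the 9 arrays, for the 19 class I and B2m probes well above background on all arrays (rows) and the dams (columns, WT left of the line). The downstream H2-Q10 pair at the top is lowest in WT 1 and highest in hNAG-1 2, while WT 2 and hNAG-1 4 are red in most other rows.

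Counted over all 21 probes, 15 were higher and 6 lower in hNAG-1 dams, beside 47.9% of all probes with a difference above 0, and the median difference was 0.15 against -0.02 over all probes. Leaving out 1 dam also turned the sign of probes near 0, namely H2-T10 (-0.02 without hNAG-1 4), H2-K1 A_51_P198434 and H2-Q1 A_52_P582814 and A_52_P231729, which stayed between -0.13 and 0.20. Under the scalings 11 probes stayed higher, 3 stayed lower and 7 changed sign. The probes called were 2 of 21, both of the downstream H2-Q10 pair and both higher, beside 5.6% of all probes, and none passed after Benjamini-Hochberg adjustment (0 of 21). Nothing is read from these counts, since the genes were chosen on this contrast. On none of the 21 probes were the genotypes without overlap (0 of 21, beside 1.35% of all probes). Apart from the downstream H2-Q10 pair, 17 probes were well above background on all arrays; of these 12 were higher and 5 lower, between -0.48 and 0.30 with a median of 0.13. With slide as a fixed block all 17 were lower in hNAG-1 dams, between -0.95 and -0.09, while the median over all probes was 0.19. That fit again sets hNAG-1 5 against WT 2, WT 3 and WT 4. In that fit the probes called were again the downstream H2-Q10 pair, 2 of 21 beside 7.61% of all probes. Thus 12 of these 17 probes turned from higher to lower and 5 stayed lower, and the downstream H2-Q10 pair stayed higher in both fits. Without WT 2 the probes called were 4 of 21 (beside 4.33% of all probes), adding H2-Q10 A_52_P428354 (0.45) and H2-Q1 A_51_P425048 (0.46), and without hNAG-1 4 they were also 4 of 21 (beside 3.82%), adding B2m A_51_P129006 (-0.62) and A_51_P129012 (-0.46). With WT 2 and hNAG-1 4 both left out they were 3 of 21 (beside 3.02%), the downstream pair (2.15 and 1.84) and B2m A_51_P129006 (-0.54).

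**Figure D3:**
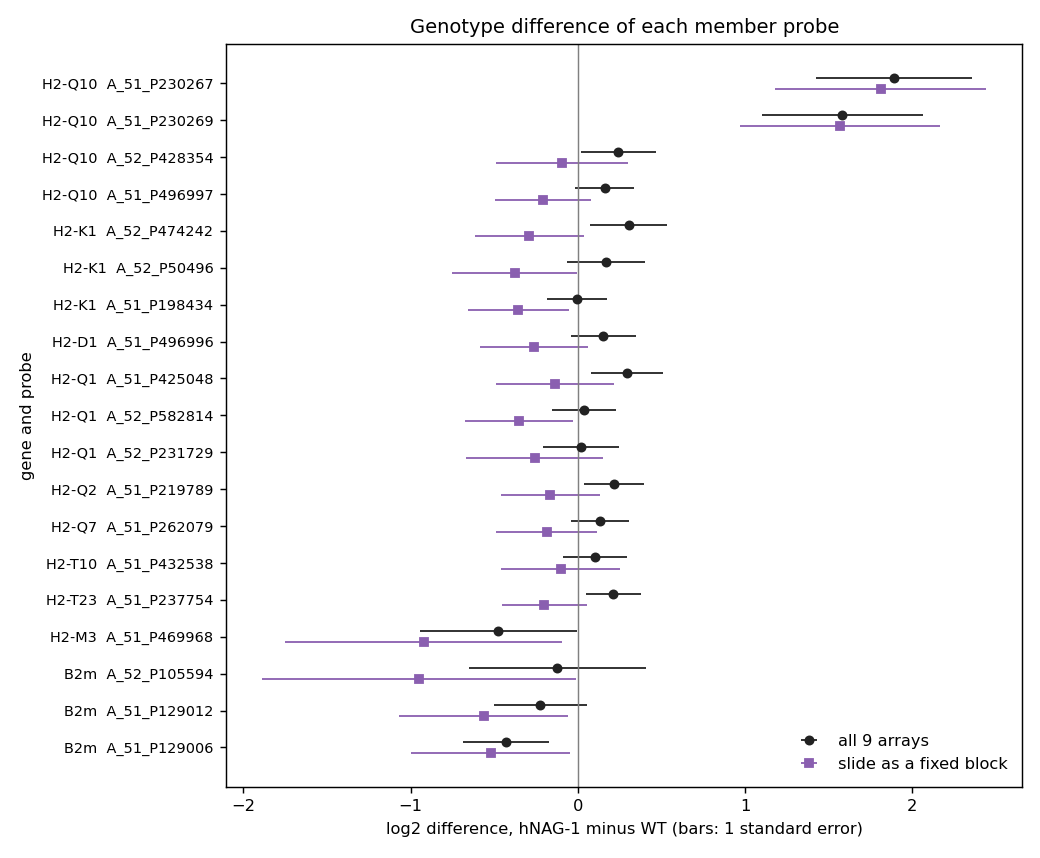
Log2 difference (hNAG-1 minus WT) with 1 standard error for each of the 19 class I and B2m probes well above background on all arrays, from the fit over all 9 arrays (circles) and with slide as a fixed block (squares). The downstream H2-Q10 pair lies at 1.89 and 1.58 over all arrays and at 1.81 and 1.57 with the block, and the other 17 probes lie between -0.48 and 0.30 over all arrays and between -0.95 and -0.09 with the block.

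WT 2 and hNAG-1 4 also stood out in the summed intensity of immune cell marker genes. In whole gland RNA, fewer cells of a type and less RNA per cell cannot be told apart. The summed B cell markers (5 of 5 genes lower in hNAG-1 dams, none at background in both genotypes) were 26001 in WT 2 against 974 to 4520 in the other WT dams, and 3964 in hNAG-1 4 against 619 to 1663 in the other hNAG-1 dams. The summed T cell markers (6 of 6 lower, none at background) were 15632 in WT 2 against 855 to 2823 in the other WT dams, and 2080 in hNAG-1 4 against 652 to 1058. The brightest marker of each list was Cd79b, a B cell receptor subunit, at 5713 ± 9158 (SD, n = 4) in WT dams and 829 ± 1048 (SD, n = 5) in hNAG-1 dams, and Cd3d, a T cell receptor subunit, at 1685 ± 2497 (SD, n = 4) and 282 ± 236 (SD, n = 5). The genotype differences of the sums were not past the threshold in exact permutation tests (two-sided p = 0.238 for B cells and 0.190 for T cells, both 0.714 adjusted over 6 marker lists, where the smallest p the design allows is 0.0159). The summed macrophage markers were 15451 in hNAG-1 4 against 3595 to 5103 in the other hNAG-1 dams and 2612 to 7403 in the WT dams (p = 0.984, exact permutation), with the macrophage surface gene Emr1 the brightest at 2482 ± 1070 (SD, n = 4) and 3560 ± 3735 (SD, n = 5). WT 2 and hNAG-1 4 were also the highest dams of their genotype on H2-M3, B2m and many heavy chain probes. The sums and the class I values did not move together in every dam: WT 1 had higher B and T cell sums than hNAG-1 4 and was low on most heavy chain probes, and hNAG-1 2 had the lowest B and T cell sums and was high on most of them. The part of those cells in the class I values was not tested. The downstream H2-Q10 pair was not high in those dams: among their own genotype, hNAG-1 4 was the lowest dam on both probes and WT 2 lay within the range of the other WT dams.

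Since H2-Q10 is known as a liver product, 11 liver genes were summed as well. The sum ranged from 525 to 3394 in WT and from 802 to 4322 in hNAG-1 dams (p = 0.429, exact permutation, 0.857 adjusted over 6 lists). Of the 11 genes 6 were higher and 5 lower in hNAG-1 dams, with a median difference of 0.02. Only 3 were well above background on all arrays. Ttr and Fga, which encode the liver secretory proteins transthyretin and fibrinogen alpha, were not so on any array. Single genes made up much of some sums, with Fgg at 2296 of 3058 in hNAG-1 4 and Alb at 2236 of 4322 in hNAG-1 2. The highest WT sum was in WT 1, the dam with the lowest downstream H2-Q10 intensity, and hNAG-1 2, the highest on the downstream pair, had the highest sum of all. Alb, the albumin gene and the brightest of the list, read 443 ± 423 (SD, n = 4) and 827 ± 811 (SD, n = 5). Its difference of 0.87 ± 0.71 (SE) was 0.39 without hNAG-1 2 and 1.43 without WT 1. Summed adipocyte markers, led by the fatty acid-binding protein gene Fabp4 (253697 ± 42106, SD, n = 4, and 256009 ± 18886, SD, n = 5), gave p = 0.698 and summed secretory epithelial markers p = 0.794, both in exact permutation tests. Fabp4 (difference 0.03) made up most of the adipocyte sum, but all 5 adipocyte genes were higher in hNAG-1 dams. Adipoq and Plin1 differed by 0.50 ± 0.36 and 0.52 ± 0.47 (SE), and by 0.05 and 0.09 without WT 1. WT 1, lowest on the downstream H2-Q10 pair, was also lowest on Adipoq, Lep, Plin1 and Cidec but not on Fabp4. The part of adipocytes in the H2-Q10 values was not tested.

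**Figure D4:**
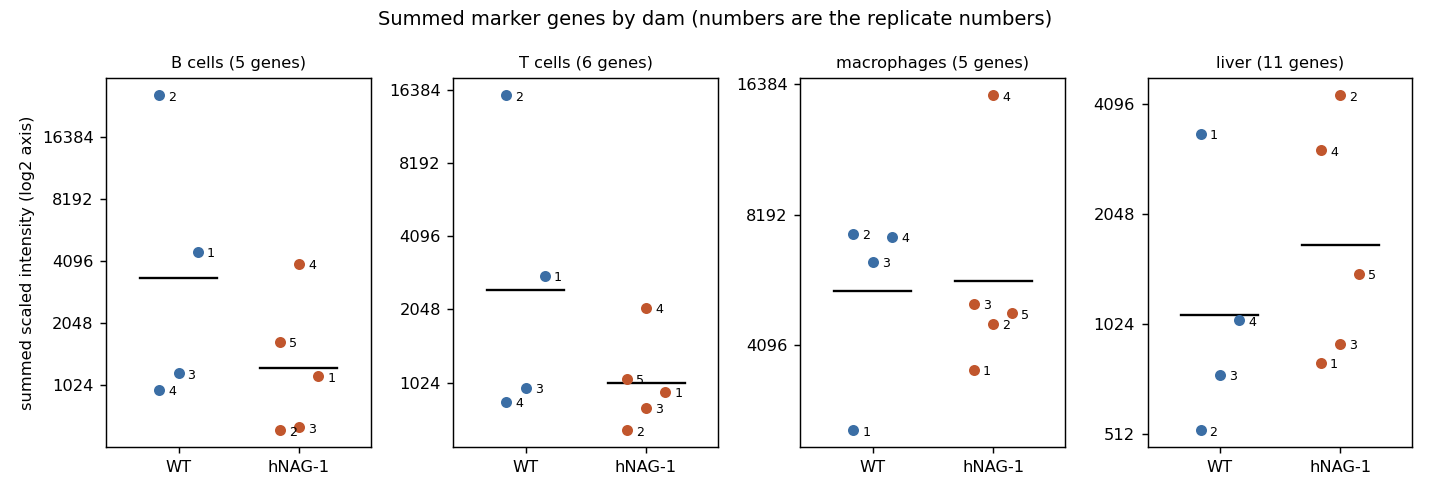
Summed scaled intensity (log2 axis) of the marker genes of B cells, T cells, macrophages and liver in each dam, with the replicate number beside each point and the geometric mean as a line. WT 2 is the highest dam for B cells (26001) and T cells (15632), hNAG-1 4 is the highest for macrophages (15451), and the liver sums of the genotypes overlap.

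The promoters of the heavy chains share an enhancer that NF-kappa B, interferon regulatory factors and the NLRC5-RFX-CREB complex are known to use, and H2-Q10 is known to differ from the classical genes there. RefSeq promoter windows (GRCm38.p6, 250 bases before to 50 after the start) were at hand for 8 of the 10 genes, all but H2-Q1 and H2-T10. The 84-base stretches below run along each gene's own strand, 5′ to 3′, upstream of the start. Capitals mark exact matches to GGGGATTCCCC (an NF-kappa B-type block, as it stands in H2-K1), TTTCACTTC (an interferon-response-type block) and TGACG (the core of a CREB-type block), which do not overlap each other:
H2-K1, chr17:34000378-34000461, minus strand: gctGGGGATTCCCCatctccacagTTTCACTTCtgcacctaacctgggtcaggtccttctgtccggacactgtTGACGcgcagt
H2-D1, chr17:35262920-35263003, plus strand: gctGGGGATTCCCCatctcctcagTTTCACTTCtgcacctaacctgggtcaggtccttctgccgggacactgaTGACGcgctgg
H2-Q7, chr17:35439018-35439101, plus strand: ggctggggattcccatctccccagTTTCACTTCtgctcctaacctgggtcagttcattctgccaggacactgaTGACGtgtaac
H2-Q10, chr17:35469910-35469993, plus strand: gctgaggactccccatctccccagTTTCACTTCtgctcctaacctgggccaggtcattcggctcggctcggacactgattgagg
H2-M3, chr17:37270109-37270192, plus strand: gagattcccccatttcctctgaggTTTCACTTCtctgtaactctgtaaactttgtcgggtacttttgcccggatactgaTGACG
Counting positions from 1 at the 5′ end of the GGGGATTCCCC block of H2-K1 and H2-D1, H2-Q10 carried G2A and T6C. Its window held TTTCACTTC and neither of the other motifs on either strand. Searched on both strands, GGGGATTCCCC was in 10 of 32851 RefSeq windows (0.0304%), TTTCACTTC in 166 (0.505%) and TGACG in 6837 (20.8%). The windows of H2-Q2 and H2-T23 held none of the 3 motifs, and that of B2m held TGACG. A match is a description of these letters and not evidence of binding.

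Genes of the surrounding pathway were read from 4 lists, each gene by its brightest probe. Peptide supply and loading covers the proteasome subunits, transporters and chaperones that deliver peptides to class I in the endoplasmic reticulum. Of 18 listed genes 17 had a probe, 15 were higher and 2 lower in hNAG-1 dams, and 0 were called (beside 5.6% of all probes), with a median difference of 0.08 that became -0.09 with slide as a fixed block. The largest positive differences were those of Tap1, a subunit of the peptide transporter (0.35 ± 0.42, SE), Tapbp, the tapasin gene, which links the transporter to class I (0.34 ± 0.21, SE), and Calr, the calreticulin gene, a chaperone of the loading complex (0.24 ± 0.18, SE). Tap2, the other transporter subunit, differed by 0.12 ± 0.20 (SE), and the immunoproteasome subunit genes Psmb8 and Psmb9 by 0.03 ± 0.35 and -0.00 ± 0.46 (SE). Lnpep, an aminopeptidase of endosomes, had the only other negative difference in this list, at -0.21 ± 0.13 (SE). Tap1 read 336, 1032, 441 and 445 in the WT dams and 398, 835, 661, 1239 and 425 in the hNAG-1 dams, so that its highest dams were again hNAG-1 4 and WT 2. With slide as a fixed block Tap1 was at -0.47, Tapbp at -0.24, Tap2 at -0.17, Psmb8 at -0.47 and Psmb9 at -0.77, and Calr stayed positive at 0.17. Without hNAG-1 5, the dam on which that fit rests, Tapbp was called (0.50, beside 14.4% of all probes called). Tap1 was at 0.69 without WT 2 and 0.11 without hNAG-1 4, and Calr at 0.09 without WT 2. Psmb8 and Psmb9 were at 0.34 and 0.43 without WT 2, and at -0.19 and -0.28 without hNAG-1 4.

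Other class I and class I-like genes gave 10 higher and 8 lower differences over the 18 of 24 listed genes with a probe, and 0 were called (beside 5.6% of all probes), with a median of 0.08. Among those well above background on every array the positive end held Azgp1, encoding a class I-like lipid-binding secreted protein (0.59 ± 0.36, SE), Mr1, which presents microbial metabolites to mucosal-associated T cells (0.38 ± 0.31, SE), and H2-T22, a ligand of some gamma-delta T cells (0.24 ± 0.26, SE). The negative end held Procr, the endothelial protein C receptor (-0.33 ± 0.37, SE), H2-Q8 (-0.32 ± 0.35, SE) and H2-T24 (-0.20 ± 0.25, SE). Fcgrt, the neonatal Fc receptor heavy chain that carries immunoglobulin G, differed by 0.18 ± 0.31 (SE). H2-T3 and H2-M9, which had the most negative differences, were well above background in 4 of 4 WT but in 2 of 5 hNAG-1 dams. With normexp background correction their differences were -0.24 and -0.15, so the sizes given below for these dim genes depend on the background correction. With slide as a fixed block 2 genes of this list were called, both higher (beside 7.61% of all probes), namely Azgp1 (1.40) and H2-M1, a dim M region gene well above background in 1 of 4 WT and 1 of 5 hNAG-1 dams. In that fit H2-T22 turned to -0.14 and H2-T24 to 0.45, and H2-T3 and H2-M9 turned from -1.38 and -0.90 to 1.14 and 0.32. On slide 3 alone, where hNAG-1 5 is the only hNAG-1 dam, H2-T3 was called higher (beside 9.04% of all probes), and without hNAG-1 5 it was called lower (-2.01), as were H2-M9 (-1.23) and H2-M1, beside 14.4% of all probes called. Azgp1 was at 0.34 without WT 2 and was called without WT 1 (0.92, beside 4.92% of all probes), Mr1 was at 0.11 without WT 1, H2-T22 was at 0.11 without hNAG-1 4 and 0.42 without WT 2, and H2-Q8 was at -0.02 and Procr at -0.12 without WT 2. Fcgrt was at -0.14 without WT 1.

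Regulators of class I transcription gave 9 higher and 15 lower differences over 24 of 25 listed genes, and 0 were called (beside 5.6% of all probes), with a median of -0.05. Nlrc5, the class I transactivator gene, had no matching probe. Stat2, an interferon signalling gene (0.31 ± 0.25, SE), and Nfyc, a subunit of the CCAAT-binding NF-Y complex (0.31 ± 0.19, SE), were among the most positive differences. Irf8, an interferon regulatory factor of myeloid and B cells (-0.80 ± 0.60, SE), Socs1, an inhibitor of cytokine signalling (-0.51 ± 0.53, SE), and Nfkb1, an NF-kappa B subunit (-0.32 ± 0.16, SE), had the most negative among genes well above background on every array. Irf8 read 6359 in WT 2 against 819 to 1181 in the other WT dams, and Socs1 1124 against 196 to 312, so that without WT 2 their differences were -0.11 and 0.05. Stat2 was at -0.39 with slide as a fixed block and 0.13 without hNAG-1 4. It was called without hNAG-1 5 (0.48, beside 14.4% of all probes called). Nfkb1 was called without WT 1 (-0.41, beside 4.92% of all probes called).

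Receptors of class I gave 4 higher and 8 lower differences over 12 of 13 listed genes, with a median of -0.23. The single gene called was Cd160, a receptor of natural killer and T cells, which was lower (beside 4.45% of all probes called lower). It was well above background in 1 of 4 WT and 0 of 5 hNAG-1 dams, so no fold is given, and it was not called with slide as a fixed block, on slide 3 alone, or with normexp background correction or quantile normalisation. Among receptor genes well above background on all arrays, Cd8a, the alpha chain of the CD8 coreceptor, had the most negative difference (-1.63 ± 0.97, SE), with 858 ± 1235 (SD, n = 4) in WT dams and 145 ± 128 (SD, n = 5) in hNAG-1 dams. In that set it was followed by the natural killer receptor genes Klrd1 (-0.75 ± 0.53, SE) and Klra7 (-0.67 ± 0.55, SE). WT 2 read 2687 for Cd8a against 87.0 to 526 in the other WT dams, and without it the differences were -0.66 for Cd8a, -0.16 for Klrd1 and -0.03 for Klra7, whereas without WT 4 Cd8a was called (-2.31, beside 4.15% of all probes). Klrc2, another natural killer receptor gene, was well above background in 1 of 4 WT and 0 of 5 hNAG-1 dams. It was called lower without WT 1 (beside 4.92% of all probes), without hNAG-1 1 (beside 6.84%) and without hNAG-1 5 (beside 14.4%). Cd8b1, the beta chain, differed by 0.11 ± 0.24 (SE) and was the only receptor gene well above background on all arrays with a positive difference, which was -0.06 without WT 2 and -0.01 without hNAG-1 1. Cd8a, Klrd1 and Klra7 were highest in WT 2 and, among hNAG-1 dams, in hNAG-1 4, as the T cell marker sums given above were. Cd8b1 was instead the lowest of its genotype in those dams (832 and 867). The part of T cells in the receptor values was not tested. No pathway gene passed after adjustment over all probes (0 of 71, lowest adjusted p 0.661 with limma).

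**Figure D5:**
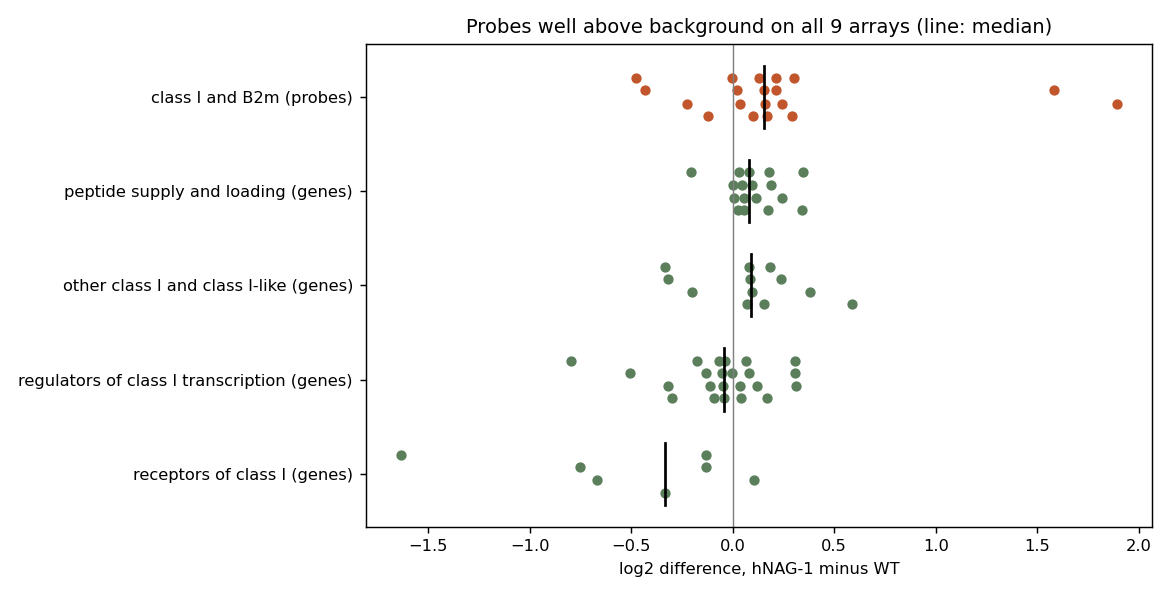
Log2 difference (hNAG-1 minus WT) of the 19 class I and B2m probes and of the genes of the 4 pathway lists, limited to probes well above background on all 9 arrays, with the median of each row as a black line. The medians run from 0.15 (class I and B2m) to -0.33 (receptors), and no pathway gene lies as far to the right as the downstream H2-Q10 pair.

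Among 23085 probes well above background on all arrays, the 5 named genes whose log2 intensity over the 9 arrays was most like the mean of the H2-Q10 probes were Cxxc1, a CpG-binding protein of a histone methyltransferase complex (Pearson r = 0.957), Aldh2, the mitochondrial aldehyde dehydrogenase (0.956), Sh2b2, a signalling adaptor (0.945), Il6ra, the interleukin 6 receptor alpha chain (0.943), and Dock6, a guanine nucleotide exchange factor (0.941). Aldh2 read 6419 on average in WT and 9035 in hNAG-1 dams, a difference of 0.51 ± 0.20 (SE). The differences of the 5 genes ran from 0.20 ± 0.13 (SE) for Cxxc1 to 0.72 ± 0.23 (SE) for Dock6. The genes were picked for likeness to a profile that was itself chosen for its genotype difference. Positive differences therefore follow from the choice. That profile also averages the unlike patterns of the upstream and downstream pairs. Among the other class I probes the highest correlation was 0.65 (H2-K1 A_52_P474242) and that of the B2m probe A_51_P129006 was -0.52. These values describe 9 arrays that share slides.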

How the data were processed

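The authors hybridised Cy3-labelled cRNA to 9 Agilent arrays and read them with Agilent Feature Extraction 9.5.3.1, whose deposited intensity (gProcessedSignal) is background-subtracted and not scaled between arrays. The deposited series table held the same values (largest difference 0). From 45018 features per array, 1639 controls were left out. Intensities were divided by each array's 75th percentile and multiplied by a common level of 796.6, features of a probe were averaged (41174 probes), and log2 values were fitted with limma 3.58.1 in R 4.3.3 (lmFit, eBayes, 7 residual degrees of freedom). The function was tested on simulated data. Exact permutation tests used SciPy 1.17.1. The number of arrays limits the precision.

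"Well above background" is the scanner software's flag. Probes of B2m, H2-K1 and H2-Q7 printed 10 times per array varied by 2.06% to 5.65% (coefficient of variation) within an array. RefSeq held 14 of the 21 member accessions, all under the same symbol. The other 7 were named by the array.

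The members and lists were chosen with earlier results of these data known. Every member was described. From each list the text names the 3 largest positive and negative differences among genes well above background on all arrays and a few core genes, and Cd160, H2-T3, H2-M1, H2-M9, Klrc2 and Irf2 were named after their values were seen. A gene that this rule would name is not reported here. The study's methods used ANOVA at p under 0.05 with a fold of 1.5 and a signal of 65. The ANOVA without those limits, and the limits added to the limma test, were run as separate alternatives.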

Additional observations from a re-analysis of the deposited data

Results flagged for a closer look

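Over 54 groups examined (21 probes and 6 marker sums in each genotype), 12 held a dam that lay apart by Dixon's ratio. The ratio was taken on unlogged scaled intensities within a genotype, and that dam was WT 2 or hNAG-1 4 each time. The nominal rate is about 1 group in 20. The 12 groups cannot be set against it, because all groups read the same 9 dams and are not independent. WT 2 lay above the other WT dams on H2-Q10 probe A_52_P428354 (9258), H2-K1 probe A_52_P50496 (17260), H2-Q7 probe A_51_P262079 (61800), H2-M3 probe A_51_P469968 (2248), B2m probe A_52_P105594 (1594), the B cell marker sum (26000) and the T cell marker sum (15630). hNAG-1 4 lay above the other hNAG-1 dams on H2-M3 probe A_51_P469968 (1133), B2m probes A_51_P129012 (93370) and A_51_P129006 (31470), the T cell marker sum (2080) and the macrophage marker sum (15450). Neither downstream H2-Q10 probe was among them. The part of lymphoid or myeloid cells in these class I values was not tested.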

How the results depend on the processing

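The H2-Q10 mean difference (0.97) and both downstream probes kept their direction and moved by less than the spread between dams under every alternative run. The median over class I and B2m probes moved from 0.15 to -0.26 with slide as a fixed block and on slide 3 alone, where the median of all probes was 0.19. It was 0.07 with quantile normalisation, 0.37 with median scaling, 0.01 without scaling, 0.28 without WT 2 and 0.07 without hNAG-1 4. Class I and B2m probes called (2) became 0 after Benjamini-Hochberg adjustment and 1 of 10 with a gene's probes averaged, and ranged from 2 to 4 (without WT 2 or hNAG-1 4) when each dam was left out. Pathway genes called (1) became 0 with normexp, quantile normalisation, Benjamini-Hochberg adjustment or the fold and intensity limits, 2 with slide as a fixed block or slide 3 alone, 3 with median scaling, and 4 with a floor of 20 or the methods' ANOVA (Lnpep, Irf2, Nfkb1 and Cd160 in both), and ranged from 1 to 7 (without hNAG-1 5) when each dam was left out. With dim probes left out the gene called was H2-M9 in place of Cd160. All probes called (2307) became 1058 with normexp, 3608 with median scaling, 3723 on slide 3 alone, 926 with the fold and intensity limits and 1 after adjustment, and ranged from 1163 (without hNAG-1 2) to 5924 (without hNAG-1 5) when each dam was left out. Leaving out WT 2 and hNAG-1 4 together, an alternative chosen after seeing the data, gave 1245. The cause of these shifts was not tested. The share of called probes that were higher was 20.5%, against 52.6% with normexp, 57.5% with quantile normalisation, 70.7% with median scaling, 38.8% with a floor, 36.9% with the methods' ANOVA, 90.8% with slide as a fixed block and 2.86% without scaling. The median of all probes was -0.02, 0.20 with median scaling and -0.16 without scaling.

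Replicate numbers are shared by the genotypes but do not pair the dams (correlations of deviations 0.279, -0.199, -0.142 and -0.307). With the replicate block, 6 pathway genes and 5447 probes were called, and the called class I probes remained 2.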
